A study of Homo sapiens with 4 samples.

Results

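The 10 integrin genes described here, ITGA1, ITGA2, ITGA3, ITGA5, ITGA6, ITGAV, ITGB1, ITGB4, ITGB5 and ITGB6, encode subunits found on epithelial cells. They were chosen by name from 19970 protein-coding genes. These genes and the gene lists below were chosen with earlier results of these data known. Shares set beside all protein-coding genes therefore describe chosen lists and are no independent test. Each gene was taken with 50000 bp on each side, and all summits of 3 histone marks in that window were collected. The marks were trimethylation of histone H3 at lysine 4 (H3K4me3, known from promoters), acetylation at lysine 27 (H3K27ac, known from promoters and enhancers in use) and monomethylation at lysine 4 (H3K4me1, known from enhancers and the flanks of promoters). They were mapped by chromatin immunoprecipitation and sequencing in untreated, wild-type MHCC97L cells, an established human hepatocellular carcinoma line grown with 10% fetal bovine serum. Each mark had 1 library, so values describe these libraries and no difference could be tested. A summit is the position of highest enrichment of a peak, and its score is the authors' −log10 of a p-value or q-value, which ranks summits within the list of 1 mark only.

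Integrins are cell surface receptors built from an alpha and a beta subunit, and they tie the cytoskeleton to the extracellular matrix. The alpha subunits of ITGA1 and ITGA2 pair with ITGB1 in receptors for collagen. ITGA3 with ITGB1, and ITGA6 with ITGB1 or ITGB4, bind laminin, and the ITGA6 and ITGB4 pair is the receptor of hemidesmosomes. ITGA5 with ITGB1 is the classical fibronectin receptor, while ITGAV pairs with ITGB5 or ITGB6 in receptors for vitronectin, fibronectin and latent TGF-beta. Several laminin-binding integrins, which are scarce on normal hepatocytes, are known from carcinoma cells.

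The windows held 109 H3K4me3, 151 H3K27ac and 256 H3K4me1 summits, of 46078, 70028 and 86366 in the lists. Since ITGA1 and ITGA2 are neighbours on chromosome 5, their windows overlap, and a summit in both was counted once in these totals. As a check of the cell line, the pair of H3K4me3 and H3K27ac at 1 boundary was sought in 5 epithelial and hepatocyte genes. It was found in 3, against 47.4% of all protein-coding genes. The 3 were HNF4A, a hepatocyte factor gene, and the keratin genes KRT8 and KRT18. KRT8 and KRT18 overlap, and the same summits, of 107.3 and 93.08, gave the pair in both. CDH1, the E-cadherin gene, had H3K4me3 of 17.7 and no H3K27ac at a boundary, and the albumin gene ALB itself was without summits of the 3 marks, though its window held 6 distal H3K27ac summits. Of 6 markers of leukocytes, endothelium and fibroblasts none had the pair at a boundary, but 2 had both marks in the gene (61.2% of all protein-coding genes). These were PECAM1, an endothelial gene, with H3K27ac up to 71.95 and 26 distal H3K27ac summits (15.2 per 100 kb), and the leukocyte gene PTPRC, with H3K27ac of 38.8 and H3K4me3 of 7.29. CD3D, CDH5, COL1A1 and COL1A2 had no summit in the gene or within 1000 bp. Of all protein-coding genes 25.7% had none there. Whether other cells had a part in these marks was not tested.

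Promoter sequences of 5 genes are shown first, because the marks at the starts of these genes differ and the letters before them do too. RefSeq promoters on GRCh38.p14, the coordinates of hg38, were given for 8 of the 10 genes. ITGA3 and ITGB4 had none. Each run below is the 250 bases before the outermost RefSeq start, 5′ to 3′ on the strand of the gene, and capitals mark matches to the motifs searched.
ITGB6, chr2:160200273-160200522, minus strand: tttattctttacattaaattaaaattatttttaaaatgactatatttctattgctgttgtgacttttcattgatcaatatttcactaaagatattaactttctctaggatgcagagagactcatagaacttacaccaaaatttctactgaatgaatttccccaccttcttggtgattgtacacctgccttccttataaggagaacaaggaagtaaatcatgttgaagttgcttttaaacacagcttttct
ITGB5, chr3:124901419-124901668, minus strand: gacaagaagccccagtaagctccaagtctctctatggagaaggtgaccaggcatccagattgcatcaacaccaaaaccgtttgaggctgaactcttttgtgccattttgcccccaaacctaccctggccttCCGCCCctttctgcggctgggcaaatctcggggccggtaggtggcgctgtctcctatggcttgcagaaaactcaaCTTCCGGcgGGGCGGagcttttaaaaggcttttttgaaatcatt
ITGA5, chr12:54419267-54419516, minus strand: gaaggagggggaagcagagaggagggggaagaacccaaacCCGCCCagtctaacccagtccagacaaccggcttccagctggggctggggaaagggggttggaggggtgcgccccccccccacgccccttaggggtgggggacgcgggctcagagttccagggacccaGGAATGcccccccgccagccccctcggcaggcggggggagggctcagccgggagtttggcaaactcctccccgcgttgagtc
ITGA2, chr5:52989102-52989351, plus strand: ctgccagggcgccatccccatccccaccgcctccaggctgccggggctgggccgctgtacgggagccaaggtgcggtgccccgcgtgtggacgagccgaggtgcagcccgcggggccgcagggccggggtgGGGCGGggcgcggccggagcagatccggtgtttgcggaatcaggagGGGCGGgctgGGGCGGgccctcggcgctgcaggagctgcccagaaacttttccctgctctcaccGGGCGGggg
ITGB1, chr10:32958231-32958480, minus strand: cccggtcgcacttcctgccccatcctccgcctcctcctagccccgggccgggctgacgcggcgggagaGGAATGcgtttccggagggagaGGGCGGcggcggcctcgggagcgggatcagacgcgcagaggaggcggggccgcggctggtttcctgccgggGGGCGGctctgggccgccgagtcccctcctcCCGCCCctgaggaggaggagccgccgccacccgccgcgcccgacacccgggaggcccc

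The run before ITGB6 held no CpG dinucleotide and 30% G and C, against a median of 16 CpG and 62.0% over the 22155 RefSeq promoters of protein-coding genes. ITGB5 had 9 CpG, ITGA5 had 12, ITGA2 had 26 and ITGB1 had 32. The motifs, searched on both strands, were AP-1 (TGACTCA or TGAGTCA), TEAD (GGAATG), the GC box (GGGCGG), ETS (CCGGAAG), the E-box (CACGTG) and the TATA box (TATAAA). A GC box lay before 4 of the 8 genes, namely ITGA2 with 4 copies, ITGB1 with 3, ITGB5 with 2 and ITGA5 with 1. Of all promoters, further starts of a gene included, 53.7% held a GC box. The integrin genes, counted at the outermost start only, were near that share. A TEAD match lay before ITGA5 and before ITGB1, and 10.5% of all promoters held one. The ETS match before ITGB5 overlaps no other match and was found in 10.7% of all promoters. An AP-1 match occurred before none of the 8 genes, against 3.46% of all promoters. ITGA6, not printed, held 1 E-box and 1 TATA match before its outermost start, found in 7.37% and 9.0% of all promoters. Further starts were left out of the counts for the 8 genes. Before that of ITGA6 lay 3 GC boxes and 1 ETS match, and before that of ITGAV no match to any motif. These matches are letters only and say nothing of binding.

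H3K4me3 lay close to the start of all 10 genes, and in 9 of them it scored 38.2 to 84.2. A gene boundary here is the first or last base of the gene, and the start is the boundary at which the strand begins. For ITGA3 and ITGB4, for which no strand was given here, positions were counted from the boundary with the lower coordinate. An H3K4me3 summit was found within 1000 bp of a boundary in 8 of the 10 genes, against 56.8% of all protein-coding genes. In the other 2, ITGA6 and ITGB1, it lay 1673 and 1648 bp into the gene. Over all protein-coding genes with H3K4me3 at a boundary the median best score there was 52.1. ITGA1 (38.2), ITGB4 (40.2) and ITGB6 (4.34) were below that median. H3K27ac was found within 1000 bp of a boundary in 8 genes as well, against 54.1% of all protein-coding genes, and was missing there in ITGA3 and ITGB6. The 2 marks shared a boundary in 6 genes (ITGA1, ITGA2, ITGA5, ITGAV, ITGB4 and ITGB5), against 47.4% of all protein-coding genes. With a window of 2500 bp ITGA6 and ITGB1 joined them, which made 8 genes, against 55.8% of all protein-coding genes. At that distance H3K4me3 was found in 10 genes (64.7% of all protein-coding genes) and H3K27ac in 8 (59%). A stricter distance of 500 bp left the pair in 3 genes, ITGA2, ITGA5 and ITGB5 (31.1%), and a score of at least 10 for both marks left it in 5, without ITGA1 (40.3%). At the start boundary alone 5 of the 8 genes with a strand had the pair, against 48.7% of all genes with one. Counting the whole gene and 1000 bp on each side, all 10 genes had H3K4me3 (69% of all protein-coding genes), H3K27ac (64.5%), H3K4me1 (40.4%) and the H3K4me3 and H3K27ac pair (61.2%). H3K4me1 within 1000 bp of a boundary was found in 2 genes, before the start of ITGA5 and at the end of ITGB5, and 12.4% of all protein-coding genes had it.

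**Figure D1:**
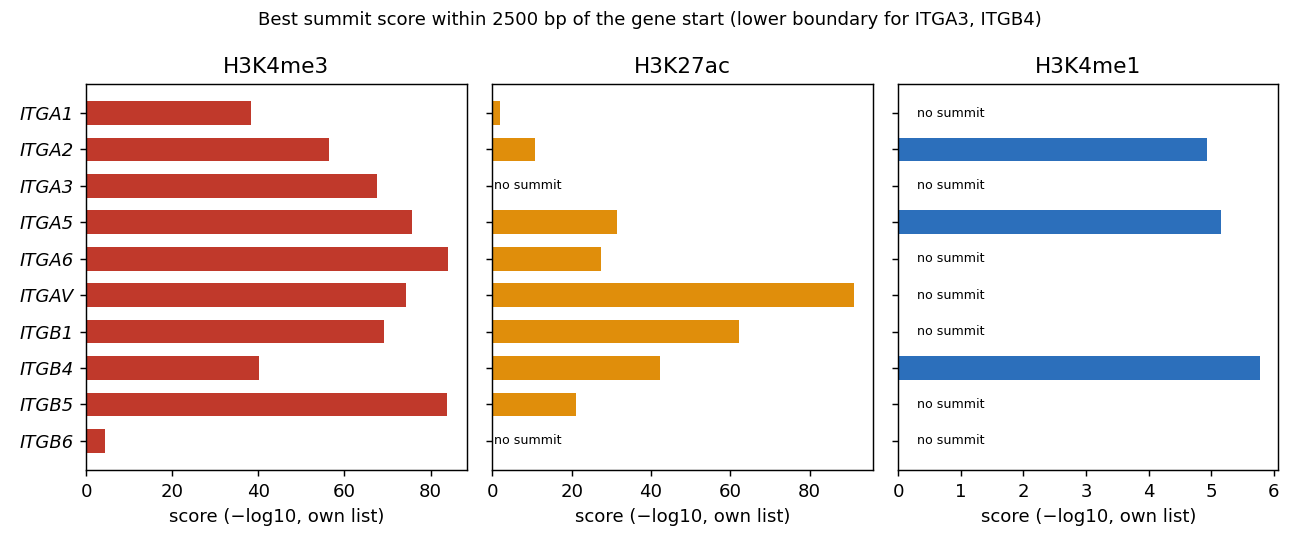
Best summit score within 2500 bp of the start of each integrin gene (x axis, −log10 as deposited, separate scale for each mark); for ITGA3 and ITGB4 the boundary with the lower coordinate was used. Each bar is the single library of that mark. H3K4me3 reached 38.2 to 84.2 in 9 genes and 4.34 in ITGB6, and H3K27ac was missing in ITGA3 and ITGB6.

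The genes of the collagen receptors, ITGA1 and ITGA2, had promoter marks and few other sites. ITGA1 is 171294 bp long (chr5:52787916-52959209, plus strand) and had an H3K4me3 summit of 38.2 at 637 bp into the gene and an H3K27ac summit of 2.03 at 388 bp. The latter stood at percentile 2.29 of its list, so it is among the weakest summits deposited. ITGA1 shares its start with PELO, a gene of ribosome rescue that lies within it, so marks there cannot be assigned to either gene. A stronger pair lay further in, with H3K27ac of 57.4 at 12768 bp and H3K4me3 of 59.7 at 13873 bp. Those summits were 129 and 976 bp from a boundary of PELO-AS1, a long noncoding RNA gene on the other strand whose start is at that boundary. ITGA1 had H3K4me1 summits in its window only from 98554 bp into the gene onwards, with scores of 2.28 to 4.94.

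ITGA2 (chr5:52989352-53094779, plus strand) starts 30143 bp beyond the end of ITGA1. Its H3K4me3 summit of 56.5 lay 115 bp into the gene, between a pair of H3K27ac summits of 10.8 each, 289 bp before the start and 209 bp after it. The start of ITGA2-AS1, a long noncoding RNA gene on the other strand, lies 934 bp into ITGA2, so these summits are near both. H3K4me1 formed a group of 7 summits between 35344 and 49055 bp into the gene, with scores from 2.01 to 7.19 (percentiles 3.36 to 79.7 of the list). The only distal H3K27ac summit of the window scored 1.74. A summit was called distal where no annotated gene, coding or not, had a boundary within 2500 bp. Further RefSeq starts inside a gene did not count as boundaries.

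The genes of the laminin receptors had more sites outside their promoters. ITGA3 (chr17:50056110-50090481) had H3K4me3 of 67.6 at 117 bp into the gene and no H3K27ac within 2500 bp of that boundary. The nearest H3K27ac summit, of 23.3, lay 4726 bp outside the gene, and the strongest, of 52.6, lay 8343 bp inside it with an H3K4me1 summit of 9.54 at 567 bp from it. Between 3562 and 28480 bp outside that boundary stood a run of sites with H3K4me1 up to 17.4, at percentile 99.3 of its list, and H3K27ac up to 38.4. PICART1, a long noncoding RNA gene, starts 371 bp from the same boundary and runs the opposite way into that stretch.

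ITGA6 (chr2:172427336-172506459, plus strand) had the highest H3K4me3 score of the 10 genes, 84.2, at 1673 bp into the gene, and H3K27ac of 27.3 at 485 bp. RefSeq gives it a further start 250 bp into the gene, and the 250 bases before that start held 30 CpG, against 8 before the outermost start. The gene held 28 of the 33 H3K4me1 summits of its window. The strongest of them, 13.5 at 12491 bp into the gene, lay 485 bp from an H3K27ac summit of 40.1 at 12006 bp. Further H3K4me3 summits of 9.72 to 20.6 stood between 11983 and 15316 bp, so all 3 marks met in this stretch.

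ITGB4 (chr17:75721459-75757818), the beta subunit gene of hemidesmosomes, had H3K4me3 of 40.2 at 421 bp into the gene. H3K27ac summits lay 563 bp outside that boundary at 19.2 and 1789 bp inside it at 42.2. Beyond the boundary was a stretch in and next to SAP30BP, a gene of a transcriptional regulator, with the highest distal H3K27ac and the highest H3K4me1 score of the 10 windows. There an H3K27ac summit of 148, at percentile 99.9 of its list, lay 23283 bp from ITGB4, and an H3K4me1 summit of 26.4 lay 253 bp from it. The highest H3K4me1 score, 26.99, stood 36709 bp from ITGB4. A total of 9 H3K4me1 summits on that side of ITGB4 scored at least 10, which only 7.87% of all H3K4me1 summits did. All 10 distal H3K27ac summits of the window were nearer to a boundary of SAP30BP, GALK1 or UNK than to one of ITGB4. Still, 2 of them, of 17.5 and 17.1, lay inside ITGB4.

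ITGB1 (chr10:32900318-32958230, minus strand), the beta subunit shared by most of these receptors, had H3K4me3 of 69.3 at 1648 bp into the gene and H3K27ac of 62.2 at 378 bp before the start. The last summit of the window lay 20181 bp into the gene, so the rest of ITGB1 and the 50000 bp beyond its end held none. Before the start, H3K27ac of 85.8 and H3K4me3 of 22.8 lay 6 bp from each other, 22775 and 22781 bp from the start and 1546 and 1540 bp from the long noncoding RNA gene ITGB1-DT. A distal H3K27ac summit of 68.8 stood 47404 bp before the start. RefSeq gives a further start 22672 bp into ITGB1. Only 4 CpG preceded it, and the nearest H3K4me3 summit, 18728 bp into the gene, scored 5.30.

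ITGA5 and ITGAV, alpha subunit genes of fibronectin and vitronectin receptors, had strong marks at the start. Their partners ITGB1 and ITGB5 were strongly marked near the start as well, with H3K4me3 of 69.3 and 83.7. ITGA5 (chr12:54395261-54419266, minus strand) had H3K4me3 of 75.7 at 365 bp into the gene and H3K27ac of 31.4 at 107 bp before the start, inside the run printed above. Its window held only 3 H3K27ac summits, and the other two, of 23.6 and 41.5, lay nearer to GPR84, an immune receptor gene. ITGAV (chr2:186590056-186680901, plus strand) had the highest H3K27ac score at a start, 91.3 at 266 bp before it (percentile 98.5), with H3K4me3 of 74.2 at 773 bp into the gene. The start of LOC124906105, a noncoding gene on the other strand, lies 160 bp before that of ITGAV. The H3K27ac summit of 91.3 is 106 bp from that start, so it cannot be assigned to either gene. A group of 7 distal H3K27ac summits spanned 13095 bp of the sequence before ITGAV, with a best score of 36.3, and a pair of 60.6 and 35.3 stood 46371 and 45253 bp before the start. Inside ITGAV the only distal H3K27ac summit scored 3.49. Its second RefSeq start, 10149 bp into the gene, had 1 CpG before it and the nearest H3K4me3 summit, 8741 bp into the gene, scored 4.53.

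**Figure D2:**
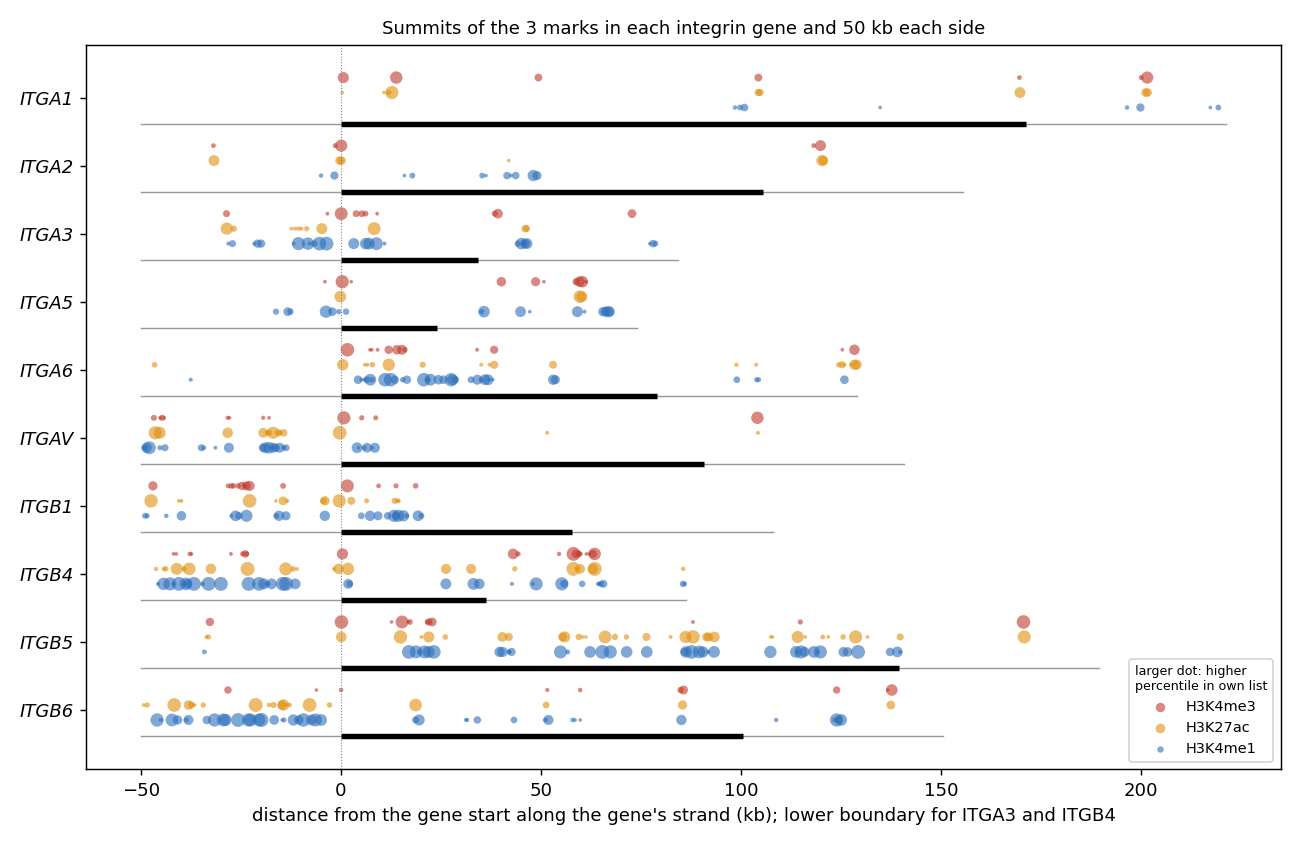
Positions of all H3K4me3, H3K27ac and H3K4me1 summits in each gene (black bar) and 50 kb each side (grey line); the x axis is the distance in kb from the gene start, along its strand (from the lower boundary for ITGA3 and ITGB4), and a larger dot has a higher percentile within its own list. H3K4me3 dots stand at the start in every row, ITGB5 carries H3K27ac and H3K4me1 along the gene, and ITGB6 carries them before the start.

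ITGB5 and ITGB6, the partners of ITGAV, had the most distal H3K27ac of the 10 genes, placed differently. ITGB5 (chr3:124761948-124901418, minus strand) had H3K4me3 of 83.7 at 173 bp and H3K27ac of 21.1 at 139 bp into the gene. Inside the gene, away from its boundaries, lay 30 of its 35 H3K27ac and 37 of its 40 H3K4me1 summits. All 24 distal H3K27ac summits of the window were inside ITGB5, with scores of 1.44 to 70.0 and a median of 9.42. The strongest, of 70.0, lay 88058 bp into the gene, and H3K27ac of 61.05 was found at 128656 bp and of 48.4 at 66067 bp. A second strong H3K4me3 summit, of 67.2 at 15321 bp into the gene, lay 404 bp from H3K27ac of 69.7. That H3K4me3 summit was 1268 bp after one of the further starts that RefSeq gives for ITGB5. This start lies 14053 bp into the gene and had 23 CpG in the 250 bases before it. The H3K27ac summit of 69.7 lay 864 bp from it and is among the 24 counted as distal, because starts inside a gene were not boundaries. The H3K4me1 summit nearest to the start lay 17011 bp into the gene.

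ITGB6 (chr2:160099671-160200272, minus strand), which encodes the subunit known from injured and malignant epithelium, differed from the other 9 genes at its start. Its H3K4me3 summit, 80 bp into the gene, scored 4.34 (percentile 21.4 of the list), whereas the other genes had 38.2 to 84.2. The highest H3K4me3 score in the gene was 12.8, at 85653 bp. H3K27ac came no nearer than 2792 bp before the start, with a score of 5.27. Before the start, however, ITGB6 had 16 H3K27ac summits and 25 H3K4me1 summits within 50000 bp. The highest H3K27ac scores there were 147 at 21271 bp, 93.9 at 7781 bp and 79.4 at 41625 bp from the start, and the first of these stood at percentile 99.9 of the list. The highest H3K4me1 scores were 24.4 at 19805 bp and 22.6 at 25668 bp. No boundary of any gene lay in this stretch, and the next genes were LINC02478, 57447 bp before the start, and RBMS1, a gene of an RNA-binding protein, 71879 bp before it. Of the 19 distal H3K27ac summits of the window, 13 were nearer to ITGB6 than to any other protein-coding gene and 6 were nearer to RBMS1. The gene body held 3 H3K27ac summits, the strongest of 45.7 at 18712 bp.

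**Figure D3:**
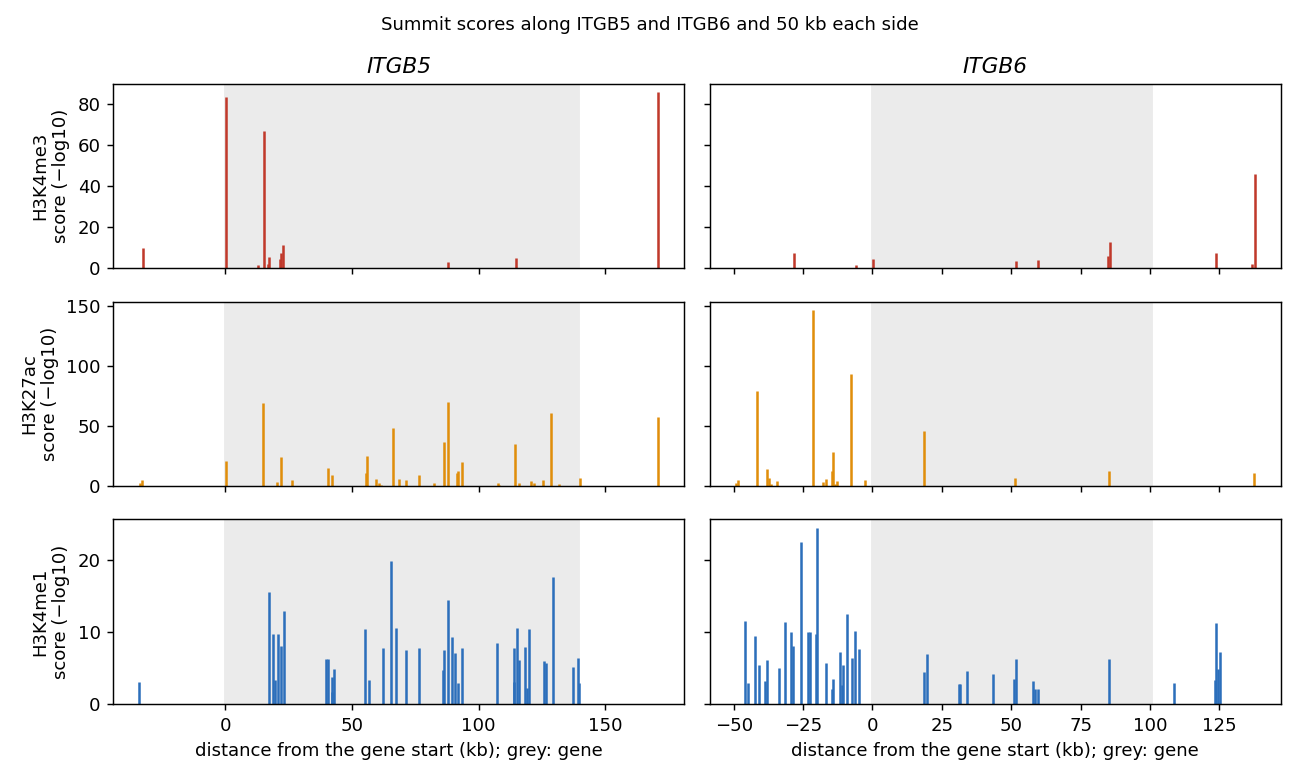
Summit scores (y axis, −log10 as deposited, own scale for each mark) against distance from the gene start in kb for ITGB5 and ITGB6; grey marks the gene and each line is a summit. ITGB5 has H3K4me3 of 83.7 at the start and H3K27ac up to 70.0 inside the gene, while ITGB6 has H3K4me3 of 4.34 at the start and H3K27ac up to 147 before it.

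Counted over the whole window, distal H3K27ac around 7 of the 10 genes was denser than the upper quartile of all protein-coding genes. The density, in summits per 100 kb of gene plus flanks, was 10.0 for ITGB5, 9.47 for ITGB6, 7.33 for ITGB4, 6.33 for ITGB1, 6.14 for ITGA6, 5.95 for ITGA3 and 5.24 for ITGAV. ITGA5 followed with 1.61, ITGA2 with 0.487 and ITGA1 with 0.369. The median of the 10 was 6.05, against 0.89 for all protein-coding genes, whose upper quartile was 2.84. Short genes and closely spaced genes leave less sequence over 2500 bp from a boundary. The comparison was not matched for gene length or spacing, and their part in the difference was not tested. Each density rests on 1 to 24 summits, so neighbours in this order such as ITGB1, ITGA6 and ITGA3, with 10, 11 and 8 summits, are not told apart by counts of this size. By distance to gene boundaries, none of the distal summits around ITGA5 and ITGB4 had the integrin gene as the nearest protein-coding gene. Even so, 2 of those around ITGB4 lay inside it. Over all windows 73 of 96 had the integrin gene nearest by that measure.

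**Figure D4:**
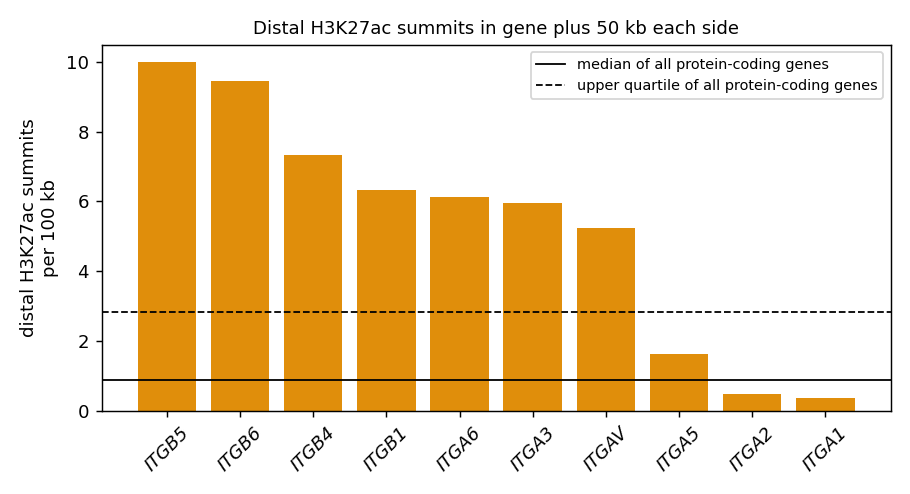
Distal H3K27ac summits per 100 kb of gene plus 50 kb each side (y axis) for the 10 integrin genes in falling order, 1 library; the solid line is the median and the dashed line the upper quartile of all protein-coding genes. From ITGB5 at 10.0 to ITGAV at 5.24 the bars stand above the upper quartile of 2.84, and ITGA2 and ITGA1 stand below the median of 0.89.

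Joined where they lay under 12000 bp apart, the distal H3K27ac summits of the genome formed 15729 groups. The largest groups at integrin genes were one of 17 summits that begins 34347 bp before ITGB6 and runs over 41227 bp across LINC02478 into RBMS1, and one of 12 summits over 37931 bp inside ITGB5. Only 0.871% of all groups had at least 17 summits and 2.38% had at least 12. Since only 7 of the 17 lay in the ITGB6 window, the size of that group does not describe ITGB6 alone. The group next to the start of ITGB6 had 9 summits over 18480 bp, a size reached by 4.90% of groups. Those beside ITGAV and at the start of ITGB1 and a further one in ITGB5 had 7 each, which 8.16% of groups reached. Another group in ITGB5 had 4 summits with a best score of 69.7, a size reached by 22.1% of groups.

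Most of the distal H3K27ac summits had H3K4me1 nearby, the pairing known from active enhancers. An H3K4me1 summit lay within 1000 bp of 77 of the 96, or 80.2% (95% Wilson interval 71.1 to 86.95), against 65.9% of all 44001 distal H3K27ac summits. Summits are not replicates and the interval covers counting error only. The share was 10 of 10 at ITGB4, 8 of 8 at ITGA3, 9 of 10 at ITGB1, 9 of 11 at ITGA6, 8 of 10 at ITGAV, 14 of 19 at ITGB6 and 16 of 24 at ITGB5. The genes with few distal summits had 2 of 2 at ITGA5, 1 of 1 at ITGA2 and 0 of 1 at ITGA1. H3K4me3 lay as near to 28 of the 96 (29.2%, 21.0 to 38.9), against 28.98% of all distal H3K27ac summits. The integrin windows did not stand apart in that share. Both summits at ITGA5 were among the 28, with H3K4me3 of 47.2 and 27.99 at 87 and 80 bp. H3K4me1 summits in the windows scored at least 10 in 14.8% of cases, against 7.87% in the whole list. Of these 38 summits, 9 were before ITGB6, 9 before ITGB4 and 9 inside ITGB5. The other marks did not stand above their lists in this way. The share was 31.2% against 43.2% for H3K4me3 and 42.4% against 43.5% for H3K27ac.

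Set beside CpG content, the weakly marked promoter of ITGB6 belongs to a class of genes that seldom carried H3K4me3. Of the 419 protein-coding genes with no CpG in the 250 bases before the outermost start, 4.53% had H3K4me3 within 1000 bp of it, with a median best score of 8.32. With 1 to 9 CpG the share was 21.2%, with 10 to 19 it was 72.1%, with 20 to 29 it was 80.3% and with 30 or more it was 80.2%. ITGB5 and ITGA6, with 9 and 8 CpG, were in the second class and yet scored 83.7 and 84.2, against a median of 33.9 for marked genes of that class within 1000 bp. The ITGA6 summit, at 1673 bp, lay outside that window and nearer to the further start with 30 CpG before it. ITGA1 had 16 CpG and ITGAV had 18.

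**Figure D5:**
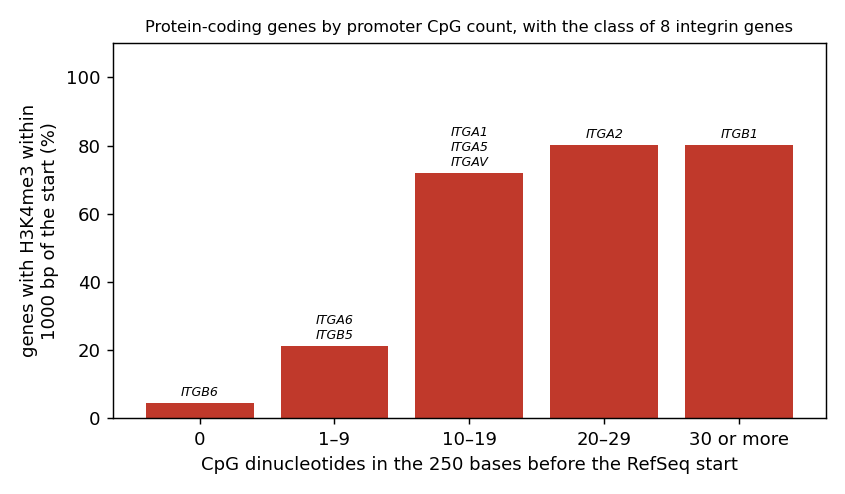
Share of protein-coding genes (y axis, percent) with an H3K4me3 summit within 1000 bp of the outermost RefSeq start, by the number of CpG dinucleotides in the 250 bases before it (x axis); the names give the class of each of the 8 integrin genes with a promoter sequence. The share is 4.53% in the class of ITGB6, 21.2% in that of ITGA6 and ITGB5, and 72.1% to 80.3% in the others.

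Of 16 other integrin genes 3 had H3K4me3 and H3K27ac at the same boundary, against 47.4% of all protein-coding genes, and their median distal H3K27ac density was 1.05 per 100 kb. The range was wide, from 0 to 10.2 in ITGA11, a collagen-binding subunit gene whose 24 distal summits were as dense as those of ITGB5, and ITGB2 and ITGAM, of leukocyte integrins, had 5.6 and 5.21 (these 3 were named after their values were seen). ITGA4, a subunit of leukocyte integrins, was 1 of 4 of these 16 without any summit in the gene or within 1000 bp. Of all protein-coding genes 25.7% had none there. The highest H3K4me3 scores in these genes were 75.9 in ITGAE, 62.2 in ITGA7, a laminin-binding subunit of muscle, and 45.7 in ITGAD. Only that of ITGA7 was at a boundary, and ITGAE and ITGAD had no H3K4me3 within 1000 bp of one.

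Of 17 genes of adhesion adaptors and hemidesmosomes 13 had the pair at the same boundary, against 47.4% of all protein-coding genes. The highest H3K4me3 scores in the gene were 105 in PTK2, the focal adhesion kinase gene, 87.7 in TLN1, which encodes the integrin activator talin, and 81.8 in PLEC, the plectin gene. Of 16 ligand and matrix genes 5 had the pair, against the same 47.4%. Neither share was tested against the integrin genes. LAMB1 and LAMC1, genes of laminin chains, had H3K4me3 of 78.1 and 71.6 at a boundary, and the collagen gene COL1A1 had no summit. TGFB1 had 73.4 inside the gene and no H3K4me3 within 1000 bp of a boundary. The fibronectin gene FN1, named after its value was seen, had H3K4me3 of 69.3, H3K27ac of 67.2 and 23 distal H3K27ac summits.

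By likeness of 4 percentiles among protein-coding genes (the best score of each mark in the gene and the distal H3K27ac density), the gene nearest to ITGB5 was FNDC3B, at a distance of 2.34 percentile points. TSPAN4 was nearest to ITGAV, at 2.41, and B3GALT5 to ITGB6, at 5.86. The measure rests on 1 library for each mark.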

How the data were processed

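The authors deposited 1 list of summits for each mark, and its score is −log10 of the significance of the peak (p-value or q-value, not stated). The tools named for hg38, per the submitters' processing notes, were MACS2, Bowtie, deepTools and Picard. The sources used here give no settings and do not say whether the input served as control. The input was not analysed here, and read depth is unknown. Summits on chromosomes 1 to 22 and X were used, which left out 185 H3K4me3, 273 H3K27ac and 61 H3K4me1 summits. Gene limits, strands and promoters came from NCBI RefSeq on GRCh38.p14. Python 3.11.15, pandas 2.3.3 and scipy 1.17.1 were used to measure distances, find co-located summits (within 1000 bp) and compute Wilson intervals. The distance functions were tested on simulated summits. All protein-coding genes, measured in the same way, served as the comparison. Genes were named by list, as the highest H3K4me3 scores and the first gene without a mark, and for likeness as the nearest gene whose window does not overlap. The members and lists were chosen with earlier results of these data known.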

Additional observations from a re-analysis of the deposited data

How the results depend on the processing

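With 1 library for each mark, no replicate could be left out. No paired analysis was possible because no mark had a second library. The number of integrin genes with H3K4me3 and H3K27ac at the same boundary, 6 of 10, was 3 with a window of 500 bp (31.1% of all protein-coding genes) and 10 with summits anywhere in the gene (61.2% of them). It was 8 at 2500 bp, 5 with scores of at least 10, without ITGA1, and 5 of 8 at the start boundary. The 77 distal H3K27ac summits with H3K4me1 became 50 of 96 within 500 bp (48.3% of all distal H3K27ac summits) and 9 of 37 with both scores at least 10 (14.2%). Within 2500 bp, over 5000 bp from boundaries, or with flanks of 25000 or 100000 bp they were 90 of 96, 57 of 72, 57 of 70 and 101 of 126. Of all distal H3K27ac summits 79.5% had H3K4me1 within 2500 bp, against 93.8% in the windows, and 66.0% of those over 5000 bp from boundaries, against 79.2%. The median density of distal H3K27ac fell from 6.05 to 2.95 per 100 kb in the gene body alone and to 1.76 with scores of at least 10. The median of all protein-coding genes was 0 in both, again without matching for gene length or spacing. In the gene body alone ITGB5 had 17.2 and ITGB6 had 2.98. Without depth or peak width, a weak or missing summit cannot be told from a shallow library.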

Other observations

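Other genes in the integrin windows carried promoter marks of their own. In the window of ITGB4, the histone gene H3-3B had H3K4me3 of 107 and H3K27ac of 116 within 200 bp of a boundary, and UNK, a gene of an RNA-binding protein, had 60.1 and 118. UMPS, an enzyme gene of pyrimidine synthesis in the window of ITGB5, had H3K4me3 of 85.8 and H3K27ac of 57.4. FAM171B, beyond ITGAV, had H3K4me3 of 58.1 and H3K27ac of only 3.49. PLA2R1, beyond ITGB6, had H3K4me3 of 46.1 with H3K27ac of 10.9.

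The last part of ITGA1 held an H3K27ac summit of 23.2 with H3K4me3 of 4.36 at 142 bp from it, 1542 bp before the end of the gene. MOCS2, which encodes an enzyme of molybdenum cofactor synthesis and begins beyond ITGA2, had H3K4me3 of 35.3 and H3K27ac of 25.9 near its start, which MOCS2-DT adjoins.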
